A study of Mus musculus with 12 samples.

Results

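Primary mouse embryonic fibroblasts homozygous for an altered Rsg1 allele (Rsg1L3P/L3P in the labels) were compared at fortified and at moderate folic acid. The comparison used 6 of the 12 libraries of the study, 3 labelled fortified folic acid, mutant and 3 labelled moderate folic acid, mutant. The 6 libraries were picked by these labels, for a comparison chosen with earlier results of these data known. Both groups carried the Rsg1 change, and both came from embryos at embryonic day 12.5. The moderate group came from F3 mice kept at 2 ppm folic acid, and its cells grew in DMEM with 225 ng/mL folic acid. The fortified group came from F3 mice kept at 10 ppm, and its medium held 3600 ng/mL. Diet and medium changed together, so their contributions cannot be told apart. The other 6 libraries were wild type cells, 3 at each folic acid level, and they entered the model as further groups. Polyadenylated RNA was sequenced. Nothing in the labels states that replicates were grown from different embryos, so p-values measure the spread between these samples, which may be technical.

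Folate carries one-carbon units between metabolites. These units build thymidylate and purines for DNA, and they remake methionine, the source of the methyl group used by DNA and histone methyltransferases. Rsg1 is a small GTPase of the CPLANE complex, which helps basal bodies to build primary cilia, the antennae through which Hedgehog signals are read. Embryos with defective cilia can fail to close the neural tube, and folic acid is given to lower the risk of neural tube defects. Fibroblasts are mesenchymal cells that secrete collagen and other matrix proteins.

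The 6 libraries held 40685887 to 46976888 estimated counts each, and 15186 of the 24279 genes in the table were tested. Levels are given as CPM, counts scaled to a common library total with TMM factors, and each set of 3 values follows the order of replicates 1, 2 and 3. Rsg1 itself stood at 1.12, 0.872 and 0.80 CPM in moderate and 0.738, 0.669 and 0.866 CPM in fortified mutant cells (log2 fold change -0.30, SE 0.38, edgeR adjusted p = 0.663). A level of the transcript does not check the labelled genotype, because the labels describe an altered allele and not a lost one. All 6 mutant libraries carried Xist and had 0 counts of Y-linked genes. Log2 CPM values of 2 moderate mutant libraries correlated across genes with r from 0.979 to 0.990, those of 2 fortified mutant libraries with r from 0.956 to 0.986, and pairs across the groups with r from 0.949 to 0.969.

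Fibroblast markers were present in every mutant library. Twist1 stood at 54.7 to 100 CPM, Prrx1 at 270 to 565 CPM and Thy1 at 86.7 to 203 CPM, and the 23 markers of the fibroblast list summed to 4251 to 4687 CPM in moderate and 4503 to 4746 CPM in fortified cells. Vim alone gave 2412 to 3353 CPM of these sums, so they say little about the other members. Of the 23 log2 fold changes (fortified minus moderate) 20 were positive, with a median of 0.49. By edgeR 0 of these genes were called, against 6.93% of all genes. The cultures also held transcripts of other cells. The 30 skeletal muscle markers summed to 4387, 4061 and 3207 CPM in moderate mutant cells and to 1584, 6831 and 4667 CPM in fortified mutant cells, and the 26 neuron markers to 354, 363 and 347 CPM and to 231, 771 and 536 CPM. The 21 markers of neural progenitors, glia and neural crest summed to 724, 781 and 612 CPM and to 311, 980 and 859 CPM, and the 18 listed epithelial and mesothelial markers, 17 of them in the table, to 79.1, 64.8 and 79.6 CPM and to 31.1, 124 and 89.9 CPM. In all 4 of these lists fortified mutant 2 and 3 lay above, and fortified mutant 1 below, every moderate mutant library. The keratin genes Krt14 and Krt5 stood at 2.76 and 1.32 CPM in fortified mutant 2 and at 1.75 and 1.87 CPM in fortified mutant 3, and at no more than 0.148 CPM in the other mutant libraries. Endothelial and blood markers summed to 97.5 to 202 CPM in moderate and 98.1 to 107 CPM in fortified cells, with up to 7.87 CPM of the globin gene Hba-a1 and 4.79 CPM of the macrophage gene Adgre1 in moderate libraries, while Pecam1 of endothelium did not exceed 0.367 CPM. Fortified mutant 2 and 3 also lay apart on the first principal component (30.2% of variance), at 48.1 and 57.5. Fortified mutant 1 stood at 4.34 there, and the moderate mutant libraries at -18.7 to -3.64. On the second component (25.5% of variance) fortified mutant 1 lay furthest from the moderate mutant libraries, at -62.9. Fortified mutant 2 and 3 stood there at 3.90 and 6.55, and the moderate mutant libraries at 28.4 to 38.8. Results are therefore also given from fortified mutant 1 alone, an alternative added with the data in view, in which the spread of the lone library is taken from the other groups.

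Fortified and moderate folic acid mutant cells differed in 1053 of the 15186 genes by edgeR's quasi-likelihood test at an adjusted p of 0.05 (6.93%). Of these genes 637 were higher (4.19% of those tested) and 416 lower (2.74%) at fortified folic acid. Genes of cholesterol synthesis, mitosis, the respiratory chain and the ribosome were among the higher ones, and targets of the stress factor ATF4, the tetrahydrobiopterin enzyme gene Gch1 and the endocytic receptor gene Lrp2 were among the lower ones. In bulk RNA, fewer cells of a type and less RNA per cell cannot be told apart. The 3 libraries of one group lay wholly above those of the other in 5797 genes (38.2%), 2984 higher (19.6%) and 2813 lower (18.5%). Genes named for the largest fold changes, such as Idi1, Acss2, Slc7a11, Gch1 and Lrp2, had to meet this condition. For them a lack of overlap is no further evidence. An unadjusted p under 0.05 was found in 3891 genes (25.6%). The median log2 fold change over all tested genes was 0.04.

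The number of calls rested on single libraries, while the directions of the leading lists did not. Without moderate mutant 1 or without moderate mutant 2 edgeR called 0 genes (3122 and 2885 at an unadjusted p under 0.05), so every call named below is lost there. It called 30 without moderate mutant 3, and 204, 39 and 477 without fortified mutant 1, 2 and 3. With fortified mutant 1 alone against the 3 moderate libraries it called 0 (3388 at an unadjusted p under 0.05). Leaving out a wild type library changes the shared spread, and also the genes tested and the scaling. The calls were 2073, 1247 and 1638 when moderate wild type 1, 2 or 3 was dropped. They were 593, 568 and 597 when fortified wild type 1, 2 or 3 was dropped. The 6 mutant libraries fitted alone gave 2122 calls, and DESeq2 on all 12 gave 2414. The share of higher genes among the calls was 60.5% with TMM scaling and 45.9% with library totals alone (543 higher and 641 lower). It was 10.9% with limma on log2(TPM + 1) (306 higher and 2508 lower), a scale on which the median of all genes shifted to -0.23.

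**Figure D1:**
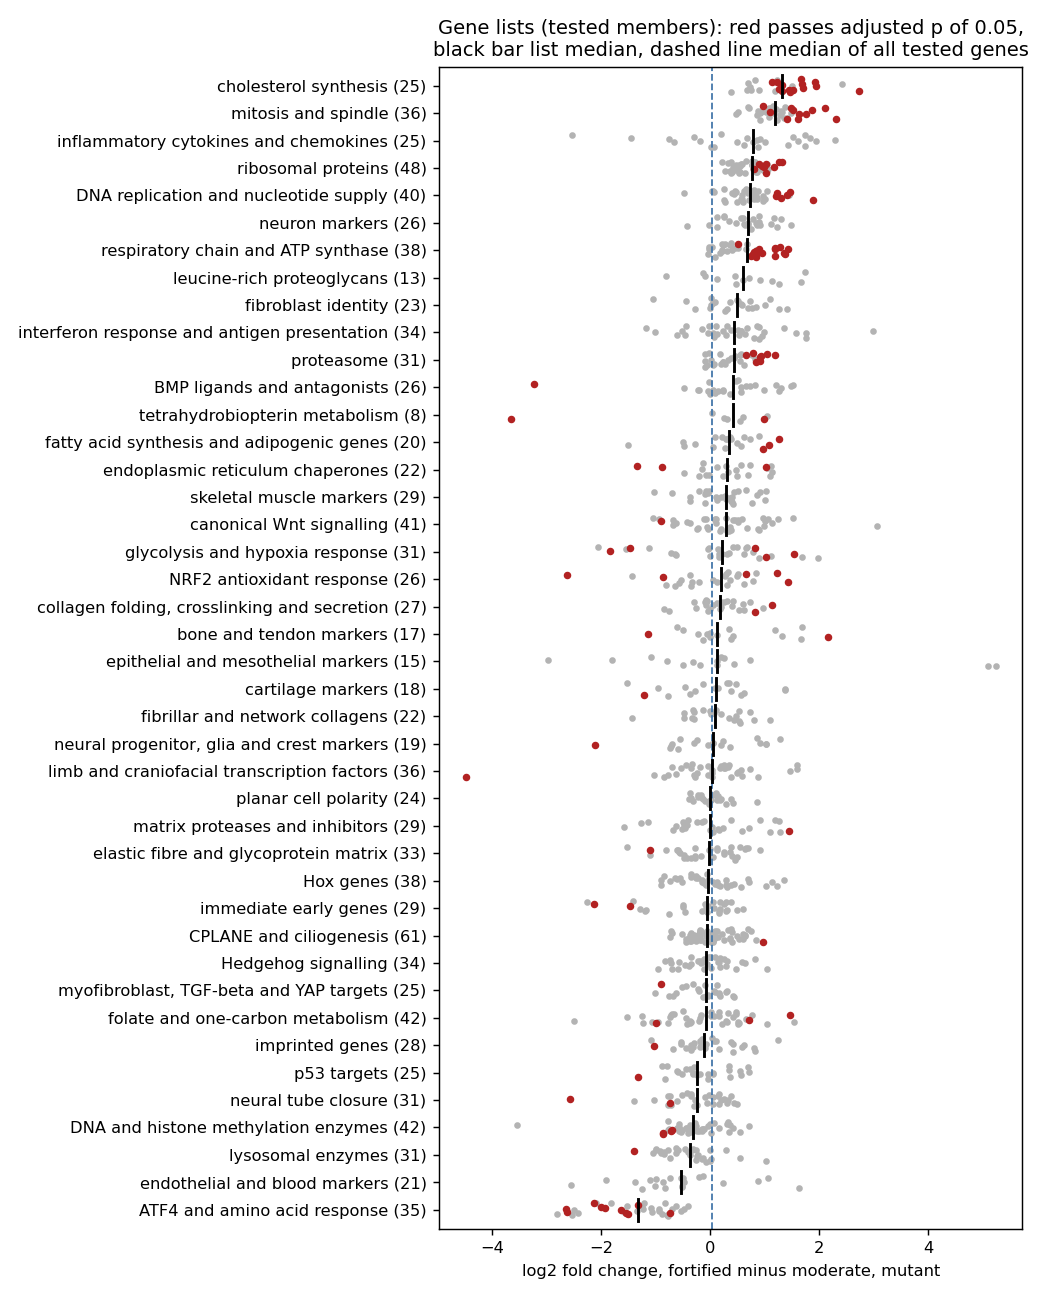
Log2 fold change (fortified minus moderate, mutant cells) of the tested members of 42 gene lists, ordered by median, with the number of tested members in brackets. Red points passed the edgeR test, grey points did not, black bars are list medians and the dashed line is the median of all tested genes at 0.04. Cholesterol synthesis (median 1.31) lies at the top and the ATF4 list (-1.32) at the bottom.

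ATF4 is a transcription factor made when cells are short of amino acids or under endoplasmic reticulum stress, and it switches on amino acid transporters, aminoacyl-tRNA synthetases and enzymes of serine and asparagine synthesis. Its targets were lower at fortified folic acid. Of 35 listed genes, all tested, 10 fell (28.6%, against 2.74% of all genes), 0 rose, 0 had a positive log2 fold change, and the median was -1.32. In 28 of the 35 all fortified libraries lay below all moderate ones, as in 18.5% of all genes. Some ATF4 targets carry in their promoters a CARE (C/EBP-ATF response element), the composite site that ATF4 binds. The letters TGATGNAA, searched on both strands, occurred in 11 of the 27 list members with a RefSeq promoter in the GRCm38.p6 table (40.7%; 250 bases before to 50 after each listed start). They occurred in 2.8% of the 11371 tested genes with a promoter there, and in 3.65% of the genes called lower. The list holds known targets of ATF4, so its high share is no result of these data. A match describes the letters and shows no binding.

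The 250 bases before the start are printed here for 3 of the genes that fell and whose promoter holds a match. They are given 5' to 3' on the gene's strand with the matches in capitals, at chr1:191183334-191183583 (minus strand) for Atf3, chr3:50443614-50443863 (minus strand) for Slc7a11 and chr19:27216770-27217019 (plus strand) for Vldlr (GRCm38.p6, RefSeq). Slc7a11 has 2 matches, facing opposite ways, and the other genes have 1 each.
Atf3: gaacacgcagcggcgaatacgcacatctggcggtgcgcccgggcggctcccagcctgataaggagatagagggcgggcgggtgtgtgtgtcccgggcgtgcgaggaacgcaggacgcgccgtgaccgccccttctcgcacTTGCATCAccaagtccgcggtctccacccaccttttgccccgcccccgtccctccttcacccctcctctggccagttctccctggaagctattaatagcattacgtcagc
Slc7a11: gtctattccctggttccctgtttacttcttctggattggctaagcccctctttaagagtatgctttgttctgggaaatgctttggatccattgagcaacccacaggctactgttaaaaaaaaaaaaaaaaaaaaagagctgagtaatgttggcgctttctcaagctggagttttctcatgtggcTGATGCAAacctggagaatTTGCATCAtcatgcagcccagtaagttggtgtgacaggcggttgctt
Vldlr: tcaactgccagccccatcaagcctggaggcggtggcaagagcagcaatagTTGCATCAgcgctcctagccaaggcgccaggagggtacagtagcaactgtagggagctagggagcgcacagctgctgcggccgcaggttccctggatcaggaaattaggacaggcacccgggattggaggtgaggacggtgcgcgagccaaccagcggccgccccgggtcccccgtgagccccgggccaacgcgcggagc

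Amino acid transporters made up 5 of the 10 calls in the list. Slc7a11 (ENSMUSG00000027737.10, chromosome 3, 49892526 to 50443614, minus strand, GENCODE vM21 on GRCm38, as for the other genes located below), the cystine and glutamate exchanger, stood at 35.7, 36.6 and 79.0 CPM in moderate and 12.6, 7.55 and 4.40 CPM in fortified mutant cells. This was 6.16-fold lower (log2 fold change -2.62, SE 0.63, edgeR adjusted p = 0.0372), and the groups did not overlap. Its heavy chain partner Slc3a2 stood at 406, 439.6 and 699 CPM and 252, 154 and 136 CPM, with no overlap (-1.51, SE 0.40, edgeR adjusted p = 0.044). The cationic amino acid carrier Slc7a1 fell from 290.2, 293 and 470.1 CPM to 97.2, 121 and 119.7 CPM (log2 fold change -1.64). Slc1a4, a carrier of alanine, serine and cysteine, and Slc38a2, which takes up small neutral amino acids, fell as well, with log2 fold changes of -1.54 and -0.73. For each of these transporters the lowest moderate library lay above the highest fortified one.

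Among the other called members, Stc2 (ENSMUSG00000020303.2, chromosome 11, 31357307 to 31370074, minus strand), which encodes the secreted glycoprotein stanniocalcin 2, had 59.3, 66.8 and 132 CPM in moderate and 13.6, 14.8 and 12.8 CPM in fortified mutant cells. It was 6.27-fold lower (log2 fold change -2.65, SE 0.47, edgeR adjusted p = 0.0158), and its 3 fortified values lay close together while moderate mutant 3 stood above the other moderate libraries. The stress-induced transcription factor Atf3 had 35.2, 36.1 and 74.7 CPM and 8.16, 12.1 and 13.2 CPM (-2.13, SE 0.45, edgeR adjusted p = 0.0263). The tryptophanyl-tRNA synthetase Wars had 249, 299 and 323 CPM and 87.2, 72.9 and 68.3 CPM (-1.93). The lipoprotein receptor Vldlr and the leucine sensor Sesn2 fell as well, with log2 fold changes of -2.0 and -1.32.

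Several well-known ATF4 targets had large differences and did not pass, and in these fortified mutant 1 lay far from the other fortified libraries. Ddit3, the stress factor CHOP, stood at 151, 223 and 251 CPM in moderate and 63.1, 16.0 and 9.64 CPM in fortified mutant cells (-2.82, SE 0.97, edgeR adjusted p = 0.0949). Trib3, a pseudokinase that feeds back on ATF4, stood at 152, 189 and 210.1 CPM and 104, 18.3 and 6.15 CPM (-2.1, edgeR adjusted p = 0.254). Asns, asparagine synthetase, stood at 302, 323 and 479.5 CPM and 335, 148 and 90.9 CPM, and its groups overlapped (-0.95, edgeR adjusted p = 0.321). A library's score for a list, obtained by centring each gene's log2 CPM on its average across the 12 libraries and averaging over the list, was 0.61, 0.76 and 1.31 in moderate and 0.01, -0.77 and -1.23 in fortified mutant cells. The list median was -0.85 from fortified mutant 1 alone and -1.68 without it. The muscle and neuron marker sums given above were lowest in fortified mutant 1, and their part in these values was not tested.

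**Figure D2:**
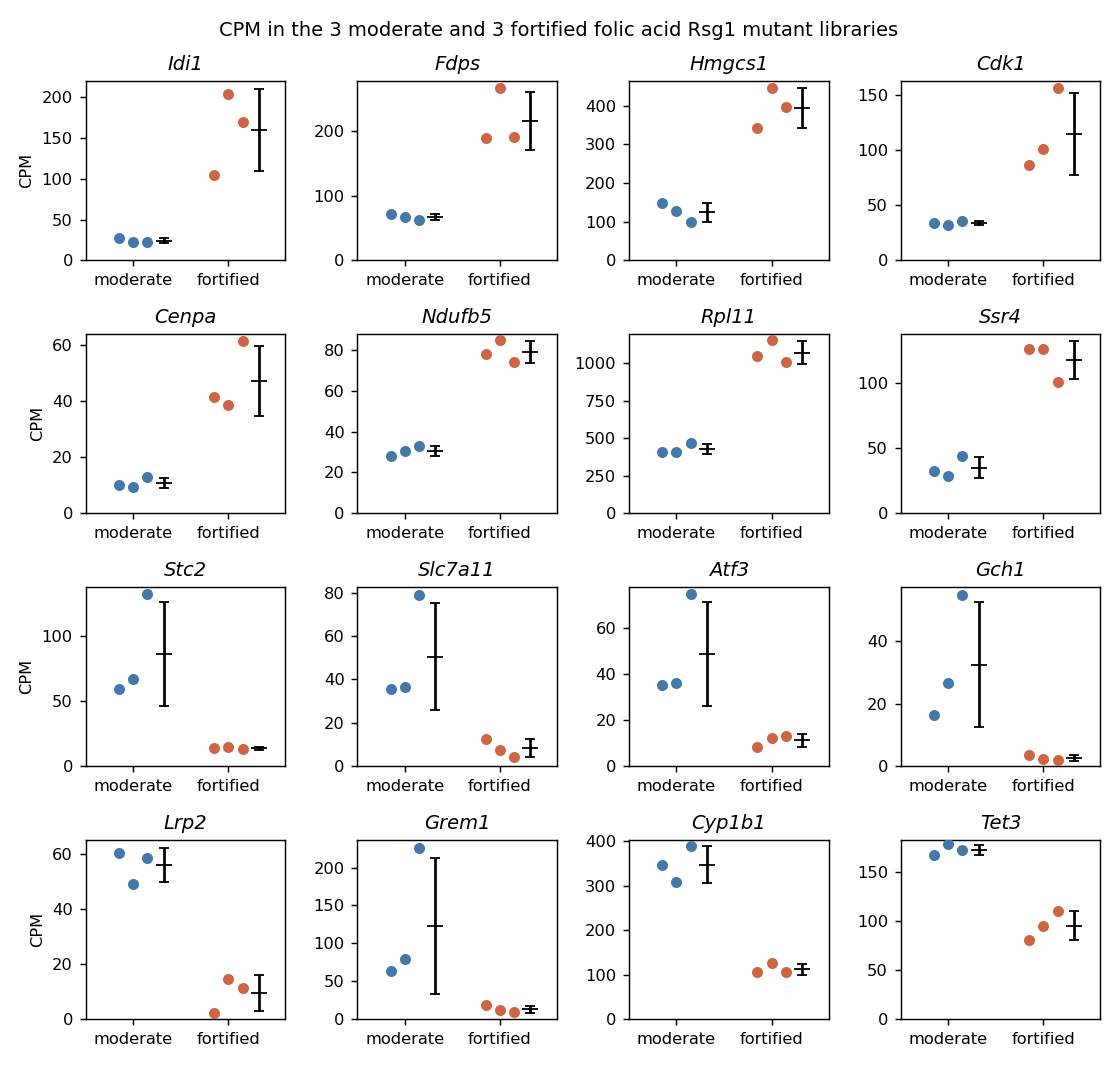
CPM of 16 genes in the 3 moderate (blue) and 3 fortified (orange) folic acid mutant libraries, points in the order of replicates 1 to 3, with the mean and SD of each group in black and each axis starting at 0. In every panel the points of the groups do not overlap; the top 8 genes are higher and the bottom 8 lower at fortified folic acid.

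Cells make cholesterol from acetyl-CoA through mevalonate, and the genes of the pathway are switched on together by SREBP-2 when sterols are scarce. Of 25 listed genes of cholesterol synthesis and its control, 14 rose at fortified folic acid (56%, against 4.19% of all genes), 0 fell, and all 25 log2 fold changes were positive with a median of 1.31. In 24 of the 25 all fortified libraries lay above all moderate ones, as in 19.6% of all genes. Idi1 (ENSMUSG00000058258.14, chromosome 13, 8885501 to 8892451, plus strand), which interconverts the isoprenoid building blocks, stood at 27.3, 22 and 22.8 CPM in moderate and 105, 204 and 170.1 CPM in fortified mutant cells. It was 6.64-fold higher, the highest fold of the list (log2 fold change 2.73, SE 0.53, edgeR adjusted p = 0.0216), and every fortified library exceeded every moderate one. Fdps, which makes farnesyl diphosphate, had 72.0, 67.4 and 62.0 CPM and 189, 267 and 189.9 CPM (1.68, SE 0.32, edgeR adjusted p = 0.0199).

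At the head of the pathway, the HMG-CoA synthase gene Hmgcs1 stood at 148, 127 and 99.1 CPM in moderate and 341, 445 and 397 CPM in fortified cells (1.66, SE 0.45, edgeR adjusted p = 0.0473). Acat2, an acetyl-CoA acetyltransferase, rose by 1.94 and the sterol oxidase Msmo1 by 1.93 on the log2 scale. Insig1, which holds back SREBP when sterols are plentiful and is itself a target of it, had 35.2, 29.7 and 33.2 CPM and 102, 116 and 102 CPM (1.71). Library scores of the list were -0.81, -0.94 and -0.95 in moderate and 0.17, 0.69 and 0.41 in fortified mutant cells. From fortified mutant 1 alone the list median was 1.08.

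The letters TCACNCCAC of a sterol regulatory element, searched on both strands, occurred in 1 of the 17 list members with a promoter in the RefSeq table (5.88%), against 1.45% of the tested genes with one. That member was Hmgcs1, whose 250 bases before the start at chr13:119690101-119690350 (plus strand) in GRCm38.p6 follow with the match in capitals.
Hmgcs1: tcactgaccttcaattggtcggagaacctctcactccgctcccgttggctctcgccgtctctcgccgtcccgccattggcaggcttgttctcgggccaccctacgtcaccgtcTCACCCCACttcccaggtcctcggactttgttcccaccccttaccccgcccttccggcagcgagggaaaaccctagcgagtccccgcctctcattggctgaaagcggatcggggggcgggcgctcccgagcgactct

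Of 20 tested genes of fatty acid synthesis and fat cell identity, 3 rose (15%, against 4.19% of all genes) and 0 fell, and the list median was 0.34. These were the desaturases Scd1 and Fads2 and the elongase Elovl6. Scd1 stood at 114, 106 and 117 CPM in moderate and 319, 275 and 217 CPM in fortified mutant cells (1.26, edgeR adjusted p = 0.0439), and Fads2 at 73.2, 62.9 and 51.0 CPM and 127, 145 and 124 CPM (1.08). Acss2, which makes acetyl-CoA from acetate for lipid synthesis, had 5.06, 3.87 and 3.63 CPM and 23.9, 20.6 and 14.4 CPM. It was 4.69-fold higher (log2 fold change 2.23, SE 0.45, edgeR adjusted p = 0.0234) with no overlap.

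Genes of cell division were higher at fortified folic acid. Of 36 genes of mitosis and the spindle 11 rose (30.6%, against 4.19% of all genes), 0 fell, all 36 were positive, and the median was 1.19. Cdk1 (ENSMUSG00000019942.13, chromosome 10, 69335146 to 69352938, minus strand), the kinase that drives entry into mitosis, stood at 33.8, 32 and 36.1 CPM in moderate and 86.1, 101 and 156 CPM in fortified mutant cells, with no overlap (3.37-fold, log2 fold change 1.75, SE 0.32, edgeR adjusted p = 0.0176). Cenpa, the histone variant that marks centromeres, had 10.2, 9.44 and 12.9 CPM and 41.2, 38.3 and 61.2 CPM (2.12, SE 0.43, edgeR adjusted p = 0.0239). Spc24 and Spc25, subunits of the kinetochore's NDC80 complex, rose by 2.32 and 1.48 on the log2 scale. Pttg1, the securin that keeps sister chromatids from separating until anaphase, rose by 2.13. The phosphatase gene Cdkn3, like Pttg1 outside the list, had 1.94, 1.74 and 1.93 CPM and 10.9, 6.71 and 13.4 CPM (2.46).

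In the list of DNA replication and nucleotide supply 6 of 40 genes rose (15%, against 4.19% of all genes), 0 fell, 39 were positive and the median was 0.74. Gins1 and Gins2, subunits of the GINS complex of the replicative helicase, rose by 1.88 and 1.41, and the primase subunit Prim1 by 1.31 on the log2 scale. Gins2 stood at 10.6, 9.26 and 10.2 CPM in moderate and 26.6, 22.4 and 31.0 CPM in fortified mutant cells (SE 0.20, edgeR adjusted p = 0.00845). Scores of the mitosis list were -0.75, -0.86 and -0.52 in moderate and 0.26, 0.22 and 0.97 in fortified mutant cells, and those of the replication list -0.46, -0.40 and -0.45 and 0.11, 0.07 and 0.60. Fortified mutant 3 was highest in both. From fortified mutant 1 alone the medians were 0.86 and 0.55.

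In the folate cycle itself the calls were near the share of all genes. Of 48 listed genes of folate and one-carbon metabolism 42 were tested, 2 rose (4.76%), 1 fell (2.38%), and the median was -0.08 (against 4.19% and 2.74% of all genes). Thymidylate synthase, Tyms, which spends a folate one-carbon unit to make the DNA base thymine's nucleotide, stood at 22.9, 22.9 and 24.4 CPM in moderate and 49.0, 58.8 and 85.4 CPM in fortified mutant cells (2.75-fold, log2 fold change 1.46, SE 0.29, edgeR adjusted p = 0.0216), with no overlap. Tyms also belongs to the replication list and is 1 of the 6 calls there. Mat2b, a regulatory subunit of the S-adenosylmethionine synthetase, rose by 0.71 on the log2 scale, from 36.3, 33.7 and 32.3 CPM to 59.3, 58.6 and 49.9 CPM. Mtrr, which reactivates methionine synthase, fell from 34.0, 38.9 and 52.5 CPM to 21.2, 18.9 and 22.9 CPM (-0.99, SE 0.24, edgeR adjusted p = 0.0363).

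Other named steps of the cycle did not pass. The mitochondrial enzymes Shmt2 and Mthfd2, which are ATF4 targets as well, had log2 fold changes of -1.23 and -1.07 (edgeR adjusted p = 0.121 and 0.0741). The reduced folate carrier Slc19a1 had 15.9, 16.7 and 35.4 CPM and 17.1, 12.6 and 13.5 CPM, and its groups overlapped (-0.66, edgeR adjusted p = 0.208). Folr1, the folate receptor alpha gene, stayed under 1 CPM in all 6 libraries.

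Tetrahydrobiopterin, a pterin cofactor, is made by an enzyme chain that starts with GTP cyclohydrolase, Gch1. Gch1 (ENSMUSG00000037580.10, chromosome 14, 47153895 to 47189413, minus strand) stood at 16.2, 26.5 and 54.8 CPM in moderate and 3.65, 2.27 and 1.80 CPM in fortified mutant cells. It was 12.6-fold lower (log2 fold change -3.66, SE 0.88, edgeR adjusted p = 0.0365), and although the moderate libraries ranged widely the groups did not overlap. The next enzyme, Pts, rose from 3.96, 3.31 and 4.53 CPM to 9.89, 6.73 and 6.72 CPM (0.99, edgeR adjusted p = 0.048). Of the 8 genes of the list these were the only calls by edgeR (12.5% in each direction, against 4.19% and 2.74% of all genes).

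Enzymes that write, read or erase methyl marks on DNA and histones fell in 4 of 42 cases (9.52%, against 2.74% of all genes), rose in 0, and had a median of -0.31 with 10 positive. Tet3, which oxidises methylated cytosine, had 168, 178 and 173 CPM in moderate and 80.5, 95.2 and 110.0 CPM in fortified mutant cells (-0.86, SE 0.17, edgeR adjusted p = 0.0229). The methyl-CpG binding protein gene Mbd1 had 43.7, 43.5 and 48.7 CPM and 22, 25.1 and 27.8 CPM (-0.86, SE 0.14, edgeR adjusted p = 0.0105). The histone methyltransferase Setd1b and the histone demethylase Kdm6b fell too, with log2 fold changes of -0.73 and -0.71. Groups did not overlap in any of these 4 genes. The maintenance methyltransferase Dnmt1 did not pass, at 122, 132 and 104 CPM and 141, 143 and 240.4 CPM (0.55, edgeR adjusted p = 0.351). The median transcript length of this list was 3817 bases, and length is taken up with the next groups.

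Components of the mitochondrial respiratory chain were higher at fortified folic acid. Of 38 listed nuclear-encoded subunits 17 rose (44.7%, against 4.19% of all genes), 0 fell, 35 were positive and the median was 0.67. Uqcrh, a subunit of complex III outside the list, was named after its values were seen, as a gene with one of the smallest p-values of the comparison. It stood at 59.4, 56.1 and 52.2 CPM in moderate and 177, 207 and 189 CPM in fortified mutant cells (3.42-fold, log2 fold change 1.77, SE 0.20, edgeR adjusted p = 0.00508). Ndufb5 of complex I had 28.2, 30.5 and 33.0 CPM and 77.9, 85.1 and 74.2 CPM (1.37, SE 0.19, edgeR adjusted p = 0.00761). Cox6c of complex IV rose by 1.42 and Sdhb of complex II by 0.84 on the log2 scale, and Cox7a2, a complex IV gene outside the list, by 1.66. The replicates of each group lay close together in these genes and the groups did not overlap.

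Ribosomal protein genes rose in 9 of 48 cases (18.8%, against 4.19% of all genes) and fell in 0, and all 48 were positive with a median of 0.77. Rpl11 stood at 409.7, 406 and 469 CPM in moderate and 1047, 1159 and 1009 CPM in fortified mutant cells (1.32, SE 0.20, edgeR adjusted p = 0.00977). Rpl5 and Rpl7a rose by 1.16 and 1.03 on the log2 scale. Many ribosomal protein genes have processed pseudogenes, between which the authors' counting could split reads. Proteasome subunits rose in 8 of 31 cases (25.8%, against 4.19% of all genes), fell in 0, and had a median of 0.44. Psmb4 of the core particle had 100.5, 101 and 114 CPM and 189, 216 and 185 CPM (0.90, SE 0.15, edgeR adjusted p = 0.0119), and Psma3 rose by 1.18.

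Genes for small proteins of the entry gate to the endoplasmic reticulum were among the genes with the smallest p, named here after their values were seen. Sec61g, a subunit of the translocation channel, stood at 51.6, 52.1 and 53.5 CPM in moderate and 139, 186 and 203 CPM in fortified mutant cells (3.36-fold, log2 fold change 1.75, SE 0.21, edgeR adjusted p = 0.00508). Ssr4, of the translocon-associated complex, had 32.1, 28.5 and 44.2 CPM and 126, 126 and 101 CPM (1.75, SE 0.19, edgeR adjusted p = 0.00508). The peptidyl-prolyl isomerase genes Ppib and Fkbp14, which help collagen to fold, rose by 1.13 and 0.82 on the log2 scale. Of 22 chaperones and stress sensors of this compartment 1 rose (4.55%, against 4.19% of all genes), the transcription factor gene Xbp1 (1.02). The stress sensor Atf6 and the degradation adaptor Sel1l were the 2 that fell (9.09%, against 2.74% of all genes). Atf6 had 139, 153 and 264 CPM and 62.2, 70.5 and 85.3 CPM (-1.35, edgeR adjusted p = 0.0337), with moderate mutant 3 well above the other moderate libraries.

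Fold changes followed transcript length, which bears on the groups just described. Genes called higher had a median transcript length of 1084 bases and genes called lower of 3604 bases, against 2210 bases over all tested genes with a length. The median log2 fold change was 0.30 for transcripts under 1000 bases, 0.16 from 1000 to under 2000, -0.02 from 2000 to under 4000 and -0.19 from 4000 bases on. Across 15065 genes, which are not independent replicates, Spearman's rho between length and log2 fold change was -0.27 in mutant and -0.10 in wild type cells. Genes under 1000 bases took 19.1 to 19.6% of counts in moderate and 21.8 to 24.0% in fortified mutant libraries. With the trend on length removed from each library, also added with the data in view, edgeR called 374 genes, 223 higher and 151 lower.

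Respiratory chain and ribosomal protein transcripts are short, with median lengths of 788 and 776 bases, and their list medians went from 0.67 to 0.42 and from 0.77 to 0.48 with the trend removed. Calls went from 17 to 9 and from 9 to 3. Proteasome genes went from a median of 0.44 to 0.29 and from 8 calls to 4. The lists of cholesterol synthesis (median length 1931 bases), the ATF4 response (2026) and mitosis (2040) moved less in their medians, from 1.31 to 1.24, -1.32 to -1.25 and 1.19 to 1.27. Their calls went from 14 to 7, from 10 to 5 and from 11 to 4. Of the 4 methylation genes that fell, Mbd1 remained past the threshold (edgeR adjusted p = 0.025), while Tet3 had 0.0686, Kdm6b 0.165 and Setd1b 0.198. Of all 1053 calls 322 remained. Among other named genes that lost their call, edgeR adjusted p was 0.107 for Atf6, 0.119 for Sel1l and 0.105 for Lamb1. It was 0.158 for Pts, 0.145 for Slc38a2, 0.142 for Ldha, 0.0623 for Tyms, 0.0543 for Gch1 and 0.0652 for Lrp2. Why length and fold change moved together was not tested.

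**Figure D3:**
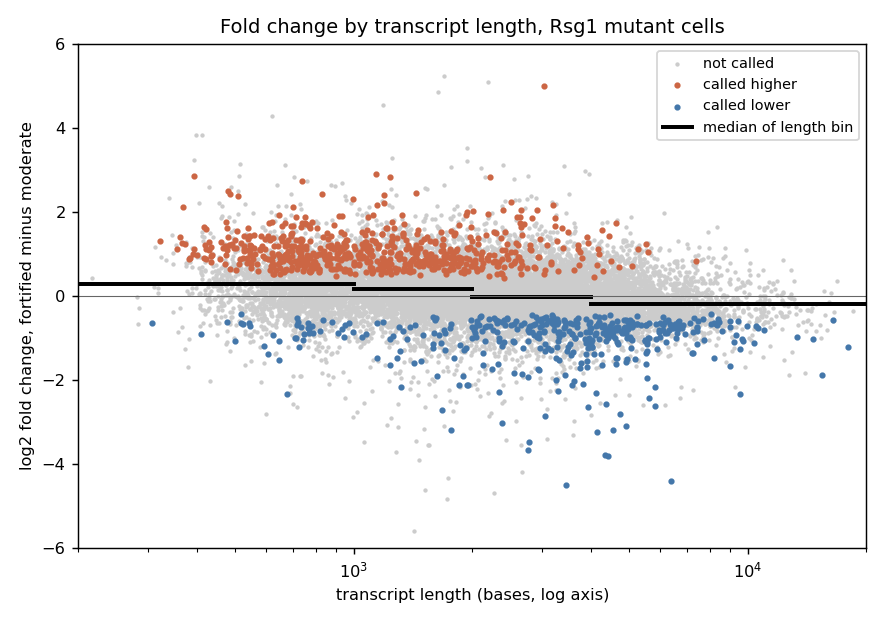
Log2 fold change (fortified minus moderate, mutant cells) against the transcript length of each tested gene in bases on a log axis. Orange points were called higher, blue points lower and grey points not called; black bars are the medians of 4 length bins, which go from 0.30 to -0.19.

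Genes of redox control and of the hypoxia response moved in both directions. In the NRF2 antioxidant list 3 of 26 genes rose (11.5%) and 2 fell (7.69%), against 4.19% and 2.74% of all genes. The peroxiredoxin Prdx1 stood at 142, 134 and 192 CPM in moderate and 356, 455 and 449.8 CPM in fortified mutant cells (1.43, SE 0.21, edgeR adjusted p = 0.00977), and thioredoxin, Txn1, rose by 1.23, while thioredoxin reductase, Txnrd1, fell by 0.87 on the log2 scale. The other gene that fell was Slc7a11, which the ATF4 list also holds. In the glycolysis and hypoxia list 3 of 31 genes rose (9.68%) and 2 fell (6.45%). Ldha, lactate dehydrogenase, rose by 0.81 and the mitochondrial protein gene Higd1a by 1.03, and Ero1l, an oxidase of the endoplasmic reticulum, fell from 139, 165 and 208 CPM to 54.5, 44.6 and 43.5 CPM (-1.84, edgeR adjusted p = 0.0288).

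Large decreases were seen in genes of varied function. Ppp1r16b, a phosphatase subunit, had 12.1, 15.4 and 32.3 CPM and 0.696, 1.32 and 0.820 CPM (-4.39, SE 0.76, edgeR adjusted p = 0.0138). Grem1, a secreted antagonist of BMP ligands, had 63.3, 79.6 and 226 CPM and 18.0, 11.9 and 9.07 CPM (-3.24, SE 0.77, edgeR adjusted p = 0.0359). It was the 1 call among 26 genes of BMP signalling (3.85%, against 6.93% of all genes). Trim66, Gpnmb, a membrane glycoprotein, P2rx3, an ATP-gated channel, and the transcription factor Klf15 had log2 fold changes of -3.81, -2.86, -3.20 and -3.02. In each of these genes the groups did not overlap, which the rule that named them required.

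Cyp1b1 (ENSMUSG00000024087.4, chromosome 17, 79701537 to 79715061, minus strand), a cytochrome P450 that is a classic target of the aryl hydrocarbon receptor, was named after its values were seen, as the decrease with the smallest p. It stood at 346, 308 and 389.8 CPM in moderate and 106, 127 and 105 CPM in fortified mutant cells (3.10-fold lower, log2 fold change -1.63, SE 0.19, edgeR adjusted p = 0.00508). Among the largest increases outside the lists above, Crip1, a LIM domain protein gene, had 3.85, 3.85 and 4.35 CPM and 28.9, 18.6 and 15.7 CPM (5.25-fold, log2 fold change 2.39, SE 0.36, edgeR adjusted p = 0.00977). The serpin gene Serpina3g had 7.51, 5.01 and 4.08 CPM and 31.5, 23.0 and 35.2 CPM (2.43). Thbs4, a tendon matrix gene, had 16.9, 13.1 and 32.2 CPM and 186, 37.3 and 53.3 CPM (2.16, SE 0.59, edgeR adjusted p = 0.0486), and fortified mutant 1 was far above the rest. The 20 bone and tendon markers, which include Thbs4, summed to 4656 CPM in that library and to 2448 to 2874 CPM in the other mutant libraries, and their part in its value was not tested.

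The cilium and the Hedgehog pathway, which depend on the complex of Rsg1, are described next. Of 61 tested genes of CPLANE and ciliogenesis 1 rose, Ift20 of the intraflagellar transport machinery, and 0 fell (against 4.19% and 2.74% of all genes), with a median of -0.06. Ift20 had 20.1, 17.4 and 19.1 CPM in moderate and 40.1, 40.4 and 29.6 CPM in fortified mutant cells (0.96, SE 0.23, edgeR adjusted p = 0.0372), and its adjusted p was 0.0801 with the trend on transcript length removed. In the Hedgehog list edgeR called 0 of 34 genes (against 6.93% of all genes), 3 had an unadjusted p under 0.05 (against 25.6%), DESeq2 called 1, and the median was -0.08 with 14 positive. The pathway's own target genes Ptch1 and Gli1, which rise when Hedgehog signals, stood at 15.1, 14.6 and 16.1 CPM and 11.4, 14.5 and 30.4 CPM (0.30, edgeR adjusted p = 0.688) and at 1.25, 0.962 and 1.73 CPM and 3.61, 1.40 and 1.96 CPM (0.82, edgeR adjusted p = 0.475). Both overlapped between the groups. With an SE of 0.40 for Ptch1 and 0.66 for Gli1, differences of this size were not resolved by 3 libraries a group.

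Of 31 tested genes whose loss disturbs neural tube closure 2 fell (6.45%, against 2.74% of all genes), Lrp2 among them, 0 rose, and the median was -0.25. Lrp2 (ENSMUSG00000027070.14, chromosome 2, 69424340 to 69586065, minus strand), which encodes megalin, a large endocytic receptor needed for forebrain development, stood at 60.7, 49.1 and 58.9 CPM in moderate and 2.32, 14.7 and 11.4 CPM in fortified mutant cells. It was 5.94-fold lower (log2 fold change -2.57, SE 0.65, edgeR adjusted p = 0.042), with all fortified libraries below all moderate ones and fortified mutant 1 the lowest. Among 24 genes of planar cell polarity edgeR called 0, DESeq2 called 0 and 2 had an unadjusted p under 0.05. Among 38 Hox genes edgeR called 0, DESeq2 called 2 and 7 had an unadjusted p under 0.05. Over all genes the share at an unadjusted p under 0.05 was 25.6%. In the canonical Wnt list of 41 genes 1 fell (2.44%, against 2.74% of all genes) and 0 rose. It was the receptor gene Fzd7, which went from 236, 263 and 208 CPM to 98.7, 132 and 148 CPM (-0.90, edgeR adjusted p = 0.0261).

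Collagens, the main product of fibroblasts, had no common direction in mutant cells. Of 22 fibrillar and network collagen genes edgeR called 0, DESeq2 called 1, 1 had an unadjusted p under 0.05 (against 25.6% of all genes), 13 were positive and the median was 0.09. In wild type cells the same genes had a median of 1.45 with all 22 positive and 14 at an unadjusted p under 0.05 (against 19.6% of all genes there), though edgeR called 0 there after adjustment. Collagen list scores were 0.02, -0.15 and 0.15 in moderate and 0.27, -0.12 and 0.01 in fortified mutant cells, against -0.61, -0.58 and -0.99 and 0.98, 0.46 and 0.55 in wild type cells. Whether the folic acid effect differed between the genotypes was tested gene by gene, with the result given below over all genes. In the list of elastic fibre and glycoprotein matrix genes 1 of 33 fell (3.03%, against 2.74% of all genes) and 0 rose. It was the laminin chain Lamb1, which went from 774, 715 and 1065 CPM to 366, 369 and 456 CPM (-1.10, SE 0.26, edgeR adjusted p = 0.037).

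Markers of muscle and neurons were tested gene by gene as well. Of 29 tested muscle and 26 tested neuron markers edgeR called 0 and DESeq2 called 0, and 0 had an unadjusted p under 0.05. Their medians were 0.29 and 0.70, and from fortified mutant 1 alone -1.16 and -0.91. Muscle scores were 0.43, 0.37 and 0.27 in moderate and -0.82, 1.13 and 0.77 in fortified mutant cells, and neuron scores 0.12, 0.16 and -0.11 and -0.74, 1.35 and 0.80. From fortified mutant 1 alone and from fortified mutant 2 and 3 together the list medians were 1.08 and 1.43 for cholesterol synthesis, 0.86 and 1.33 for mitosis, 0.66 and 0.68 for the respiratory chain, 0.83 and 0.66 for ribosomal proteins and -0.85 and -1.68 for the ATF4 list. The part of the other cell types in these values was not tested.

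**Figure D4:**
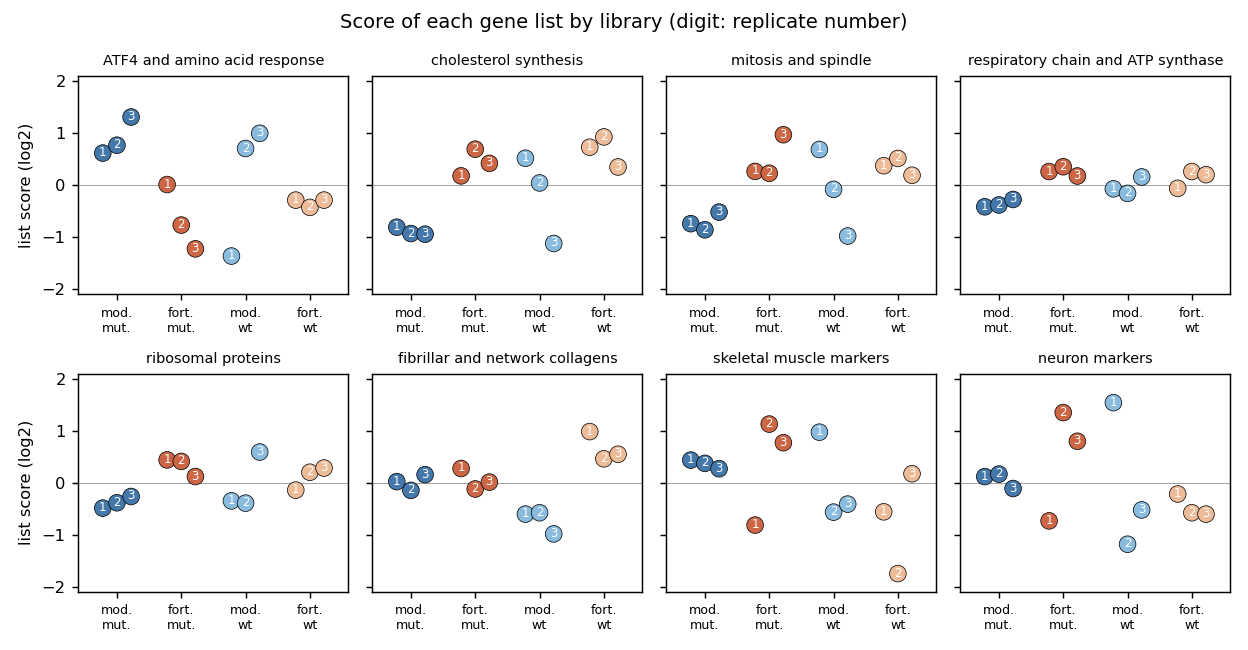
Score of 8 gene lists (mean log2 CPM of the list's genes minus each gene's mean over the 12 libraries) in every library, by group, with the replicate number in each point. In the ATF4, cholesterol, mitosis, respiratory and ribosomal panels the moderate and fortified mutant scores do not overlap; in the muscle and neuron panels fortified mutant 1 lies below and fortified mutant 2 and 3 above the moderate mutant libraries.

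The same folic acid comparison in wild type cells shares no library with the mutant one. There edgeR called 4 of 15186 genes (0.0263%), Cmklr1, Dkk3, Fkbp14 and Sec24d, and 2984 had an unadjusted p under 0.05, while DESeq2 called 1197. Without moderate wild type 1, which lay apart from the other moderate wild type libraries on the first principal component (68.0 against -68.6 and -53.7), edgeR called 1012. Xist was carried by moderate wild type 1 and fortified wild type 1, and Y-linked transcripts by moderate wild type 2 and 3 and fortified wild type 3. Fortified wild type 2 had 9 counts of Xist and 0 of Y-linked genes. The mutant libraries were alike in these transcripts and the wild type ones were mixed. The part of this in the wild type calls and in the difference between genotypes was not tested. Of the 637 genes higher in fortified mutant cells 603 were positive in wild type cells as well (94.7%), and of the 416 lower ones 407 were negative (97.8%). Over all tested genes 68.6% had the same sign in both genotypes. All fortified wild type libraries lay above all moderate ones in 223 of the 637, and below in 0. They lay below in 216 of the 416, and above in 0. These groups do not overlap in 11% and 9.67% of all genes in the higher and lower direction.

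Wild type changes of these genes were smaller, with medians of 0.36 against 0.98 for the higher and -0.53 against -0.87 for the lower genes. The genes were chosen on their mutant values, so that smaller values elsewhere are no sign of a difference. Tested directly, the difference between the genotypes passed in 0 genes by edgeR (lowest adjusted p = 0.708), with 1015 genes at an unadjusted p under 0.05 (6.68%) and 8 called by DESeq2. Some calls, picked after their values were seen, had near equal log2 fold changes in both genotypes. Crip1 had 2.39 in mutant and 2.37 in wild type cells, Gch1 -3.66 and -3.73, Ppp1r16b -4.39 and -4.12, Xbp1 1.02 and 1.0 and Atf3 -2.13 and -2.01. Cdk1 had 1.75 and 0.31 (interaction 1.44, unadjusted p = 0.00749), and Tyms 1.46 and 0.15 (interaction 1.31, unadjusted p = 0.00701).

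The 10 genes with the smallest p of that difference, leaving out a member of the clustered protocadherins, lay on both sides. Fold changes were lower in mutant than in wild type cells for the chemerin receptor gene Cmklr1 (difference -1.29 on the log2 scale, 95% interval -1.80 to -0.77), Col11a1 (-1.60), Itga11, a collagen-binding integrin (-2.70), elastin, Eln (-2.08), Pxdn (-1.0), Adamts14 (-1.16) and Fndc3b (-0.78). They were higher for Gins2 (1.32, interval 0.70 to 1.94), Cox7a2 (1.36) and Sec61g (1.19). None passed the adjusted threshold, and the intervals are not corrected for the number of genes. Itga11 stood at 126, 112 and 92.7 CPM in moderate and 150.4, 102 and 60.4 CPM in fortified mutant cells, which overlapped, and at 13.7, 34.4 and 43.3 CPM and 249, 115 and 201 CPM in wild type cells, which did not.

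**Figure D5:**
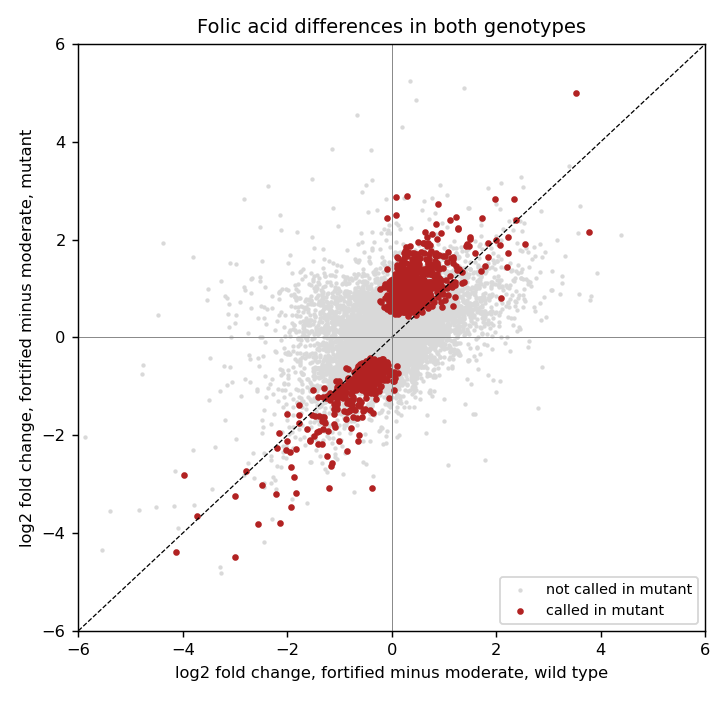
Log2 fold change at fortified against moderate folic acid of each tested gene, wild type cells on the x axis and mutant cells on the y axis, with genes called in mutant cells in red and equality as a dashed line. Most red points share the sign in both genotypes (603 of 637 higher and 407 of 416 lower genes).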

How the data were processed

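Polyadenylated RNA of 12 fibroblast libraries (3 in each of 4 groups) was sequenced. The authors deposited estimated counts per gene, which are not all whole numbers, and TPM values for the same libraries. The names of both tables give salmon as the tool. The genome build was mm10, per the submitters' processing notes; salmon's version and the annotation were not given in the sources used here. Groups were taken from the sample labels, and the table's columns were matched to samples by the sample descriptions.

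Gene coordinates and transcript lengths (the median over a gene's transcripts) came from GENCODE vM21, matched by symbol for 15065 of the tested genes, and promoters from RefSeq. Counts were rounded to whole numbers. The filterByExpr function removed low genes (its thresholds being 10 counts and a total of 15), and the rest were scaled by TMM and tested with edgeR 4.0.16 in R 4.3.3, by the quasi-likelihood test with 1 mean for each of the 4 groups and contrasts within each genotype and between genotypes. P-values were adjusted over all 15186 genes by the Benjamini-Hochberg method, with a threshold of 0.05. Total counts were 39339190 to 48475963 per library, and the common biological coefficient of variation was 0.332. Alternatives used DESeq2 1.42.0 and limma 3.58.1, other scalings and filters, TPM, a replicate block and the removal of each library. In simulated counts for the mutant comparison 200 genes were changed, over 3 runs. There 11.3% of 2-fold changes (15058 genes tested) and 82% of 4-fold changes (15052 genes tested) were recovered. The adjustment of p-values depends on how many genes differ, and the mutant comparison called 1053 genes. These shares therefore do not carry over to it.

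Genes were named by rule: the 15 largest positive and 15 largest negative fold changes among called genes whose higher group averaged 5 CPM or more and whose groups did not overlap, up to 4 members of each of 42 lists with the smallest p, fixed genes of folate metabolism, methylation and Hedgehog signalling, and the 10 smallest p-values of the difference between genotypes. Not all of these are described. Genes outside the rule, among them Uqcrh, Cyp1b1, Sec61g and Ssr4, were named after their values were seen, as were further members of the lists, such as Ddit3, Trib3 and Asns. A few genes that the rule names are not reported here. The comparison, the members and the lists were chosen with earlier results of these data known.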

Additional observations from a re-analysis of the deposited data

How the results depend on the processing

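The number of genes called between fortified and moderate mutant cells was 1053, and it was 2414 with DESeq2, 2122 with only the groups compared, 5273 with limma-voom and quality weights, and 2814 and 2805 with limma on log2(TPM + 1) and log2(TPM + 0.1). It was 0 against a 1.5-fold change (glmTreat), 374 with the trend on transcript length removed, 471 with trends on length and GC content removed, 0 without fortified mutant 2 and 3 together, and 0 to 2073 with each library left out. In wild type cells the number was 4, and it was 1197 with DESeq2, 2 with library totals, 80 with no filter, 39 at 1 CPM, 0 with only the groups compared, 17 with limma-voom, 1 and 13 on the TPM scales and 1 with glmTreat. It was 52, 34 and 73 with the trends on length, on GC content and on both removed, 99 without fortified mutant 2 and 3, 39 with only genes of known length, and 1 to 1012 with each library left out. For the difference between genotypes DESeq2 called 8 genes and every other alternative 0. With a replicate block, 559 genes were called in mutant and 65 in wild type cells, and with the length trend removed as well 112 and 49. Same-numbered mutant libraries deviated with correlations of -0.03, 0.02 and 0.09, and differently numbered ones with -0.08 to 0.09. In wild type cells same-numbered libraries had 0.10, 0.21 and 0.09, and differently numbered ones -0.22 to 0.10. The main test did not treat the numbers as pairs, and these values do not settle whether they are. Over the alternatives, the named genes gave 2015 values with the same call, 889 that lost it, 22 that gained it and 13 with the opposite sign. Those of opposite sign were Ptch1 (-0.13 and -0.16 on the TPM scales, -0.25 to 0.56 with each library left out, the lowest without fortified mutant 3, -0.45 without 2 and 3), Eln (-0.011 with limma-voom, -0.13 on both TPM scales) and Itga11. Itga11 was -0.44 to 0.17 with each library left out, above 0 without moderate mutant 1 (0.03) and fortified mutant 3 (0.17), 0.42 without fortified mutant 2 and 3, 0.14 and 0.18 with the length trend or both trends removed, and 0.12 with length removed under the replicate block. None of these 3 genes was called. List medians stayed within 1 SD of library scores in 1135 of 1260 cases. The cause of these shifts was not tested. In the simulation with 200 changed genes most 2-fold changes were not called, a share that does not carry over to the mutant comparison. The genes called in the mutant comparison had median log2 fold changes of 0.98 (higher) and -0.87 (lower).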

Other observations

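Lysosomal, imprinted and immediate early genes are read here against the 2.74% of all genes that were called lower in fortified mutant cells. Of 31 lysosomal enzyme genes 27 were lower at fortified folic acid and 4 higher, with a median of -0.38, and 1 passed (3.23%), Tpp1, the tripeptidyl peptidase, which stood at 169.6, 189 and 134 CPM in moderate and 74.6, 66.7 and 45.0 CPM in fortified cells (-1.40, SE 0.38, edgeR adjusted p = 0.0478). Library scores of that list were 0.11, 0.26 and -0.12 in moderate and 0.13, -0.44 and -0.79 in fortified mutant cells, so fortified mutant 1 lay among the moderate libraries. Among 28 imprinted genes the zinc finger gene Plagl1 fell (3.57% of the list), from 511, 439.5 and 434 CPM to 225, 203 and 252 CPM (-1.03, edgeR adjusted p = 0.0119). Of 29 immediate early genes 2 fell (6.90%), Atf3 and Myc, a driver of growth, and Myc had 135, 146 and 313 CPM and 58.9, 68.8 and 87.5 CPM (-1.46, edgeR adjusted p = 0.0432).

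Single calls were also found in lists of differentiated cells, whose members had no common direction. Of 19 tested markers of neural progenitors, glia and neural crest 10 were positive and 9 negative, and 1 fell (5.26%, against 2.74% of all genes). Of 18 tested cartilage markers 10 were positive and 8 negative, and 1 fell (5.56%). Mbp, a myelin gene, fell from 7.33, 8.25 and 9.31 CPM to 1.79, 2.22 and 1.73 CPM (-2.11, edgeR adjusted p = 0.0426). Sox6, a transcription factor of cartilage, fell from 15, 17.3 and 19.1 CPM to 4.34, 7.06 and 10.8 CPM (-1.21). Of 29 tested matrix proteases and inhibitors 1 rose (3.45%, against 4.19% of all genes). It was the gelatinase gene Mmp9, which went from 13.0, 9.75 and 13.2 CPM to 21.1, 58.0 and 19.2 CPM (1.45, edgeR adjusted p = 0.0496). These 3 genes had groups that did not overlap, and their calls are among those lost without moderate mutant 1 or 2.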
